A study of Mus musculus with 9 samples.

Results

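The genes described here are Shox2, the gene disrupted in this study, and 5 homeobox genes of limb mesenchyme: Prrx1, Prrx2, Alx1, Alx4 and Emx2. They were chosen by name, 6 genes out of 24102 rows of the deposited expression table, and each was found once. All 6 passed a filter on low values, which a row passed when 3 or more of its 6 columns held at least 1 FPKM. FPKM counts sequenced fragments per kilobase of transcript, scaled to the library's size.

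RNA was sequenced from green fluorescent cells sorted out of digested mouse limbs at E12.5, in midgestation. All sorted cells carried Cre recombinase at 1 Shox2 allele and the Rosa(mTmG) reporter, which makes a green membrane protein in cells where Cre has acted and a red one elsewhere. Controls were Shox2(Cre/+);Rosa(mTmG), with 1 unaltered Shox2 allele, and mutants were Shox2(Cre/-);Rosa(mTmG), with none. The series lists 3 control, 4 mutant and 2 WT whole-limb samples, and the table used here has 1 control and 1 mutant column for each of litters 1, 2 and 3. Because Cre is made from the Shox2 locus, the sort follows cells that have used that locus, and the controls too have 1 altered allele. Litter 1 has 2 mutant samples, and the sources used here do not say which of them its mutant column holds. The labels do not say how many embryos or which limbs entered a column, or which part of Shox2 the mutant allele lacks. Nothing says that columns came from separate embryos beyond their litter, so p-values measure the spread between these columns.

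Homeobox genes encode transcription factors that bind DNA through a homeodomain, usually at sites with the core letters TAAT. Shox2, Prrx and Alx proteins have paired-type homeodomains, a class that can bind as dimers to a pair of such cores. Emx2 belongs to the separate empty spiracles family and is included as a gene of the limb girdle. In mice Shox2 is needed for the proximal limb bones, Prrx1 and Prrx2 act together in limb outgrowth and skeletal growth, Alx4 restrains the posterior signal Shh in the anterior limb bud, and Emx2 is needed for the shoulder blade.

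Shox2 and Prrx1 are the members named in a deposited list of 1352 gene symbols that the submitters call directly repressed by Shox2. The promoter windows of these 2 genes are shown for that reason, from 250 bases before to 50 after a transcription start in RefSeq (build GRCm38.p6, not the build of the expression table). Capitals mark TAATTA, a palindrome in which a TAAT core is present on both strands. The Shox2 window lies on the minus strand at chr3:66981722-66982021 and the Prrx1 window on the minus strand at chr1:163313601-163313900, at a start inside the annotated gene, whose outer end is at 163315145.
Shox2: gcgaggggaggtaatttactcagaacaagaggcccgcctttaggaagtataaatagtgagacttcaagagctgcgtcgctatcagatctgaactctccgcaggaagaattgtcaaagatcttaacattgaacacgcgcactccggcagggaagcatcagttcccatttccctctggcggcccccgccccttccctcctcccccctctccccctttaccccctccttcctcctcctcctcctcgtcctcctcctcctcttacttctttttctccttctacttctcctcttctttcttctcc
Prrx1: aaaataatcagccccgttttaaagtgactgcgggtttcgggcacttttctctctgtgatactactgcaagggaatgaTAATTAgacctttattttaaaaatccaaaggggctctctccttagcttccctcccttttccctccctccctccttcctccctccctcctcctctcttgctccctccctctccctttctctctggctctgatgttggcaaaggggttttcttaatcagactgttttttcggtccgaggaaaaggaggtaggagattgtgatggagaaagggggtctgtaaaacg

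TAATTA was found 1 time in the Prrx1 window, starting at its base 78, and 0 times in the Shox2 window. It was also found 1 time in the window of Emx2, from its base 287, and 0 times in that of Prrx2. Of 32851 windows of 300 bases in the same RefSeq table, 5.29% hold it. The search covered both strands, which give the same matches for a palindrome. Windows of Alx1 and Alx4 were not used here.

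The 6 columns summed to between 347708 and 439109 FPKM. These sums are no measure of depth. Among 1332 rows under 0.15 FPKM in both columns of litter 3, 44.5% had a ratio within 0.05 log2 units of a 2-fold step or of equality, against 8.13% in litter 1 and 6.12% in litter 2, so no relative depth was derived over the series and depth is unknown. Since the header names the normalisation once per litter, the scaling may differ between litters, and comparisons within a litter are the safer ones. The litter 2 mutant column stood apart in sex composition, with Xist, the X inactivation transcript, at 178 FPKM and the Y-linked gene Eif2s3y listed at 0, against 34.6 and 23.9 FPKM in its control. Sex and genotype cannot be told apart there. Changes of the 6 members are also given without that pair, and those of other genes are not. Of 17 markers of limb mesenchyme with a row, all 17 passed the filter, and their summed level was 3300, 3780 and 3330 FPKM in the controls and 2540, 3470 and 3220 FPKM in the mutants of litters 1, 2 and 3. The collagens Col1a1, Col1a2 and Col3a1 made up most of that sum, and the median log2 change over the 17 was 0.12, against -0.04 over all rows. Summed markers of blood vessel endothelium were lower in each mutant, at 6.97, 18.9 and 8.42 FPKM in the controls and 6.04, 5.80 and 5.82 FPKM in the mutants. Cldn5, Emcn, Esam and Kdr were lower in the mutant of every litter. Pecam1, Cdh5 and Tie1 were higher in the mutant of litter 1, and Tek in that of litter 3. None of the 8 endothelial genes was at 0 in every column, and the part of endothelial cells in the results below was not tested. Summed markers of muscle, nerve and glia, surface ectoderm, red cells and leukocytes were each higher in the mutant of some litters and lower in that of others. In bulk samples, fewer cells of a type and less RNA per cell cannot be told apart.

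In the controls Shox2 stood at 217, 222 and 210 FPKM in litters 1, 2 and 3. In the mutants it stood at 16.7, 18.3 and 96.9 FPKM. The groups did not overlap, and the library labelled mutant in litter 3 lay well above the other mutants. Its Shox2 level was 46.2% of that in its control, where the mutants of litters 1 and 2 had 7.68% and 8.25%. The label gives this library no unaltered Shox2 allele but does not say which part of the gene the mutant allele lacks. What kept the litter 3 level higher was not tested. Changes of the 6 members are also given without litter 3, and those of other genes are not. The control mean was 216 ± 6.31 FPKM (SD, n = 3) and the mutant mean 44.0 ± 45.9 FPKM (SD, n = 3). No row among the 12314 tested had a lower log2 change than Shox2, which was at -2.75 on the log2(FPKM + 1) scale (SE 0.64, 95% interval -4.27 to -1.23). The targeted gene was lower in the mutant of each litter, but it did not pass the threshold in limma over all rows (adjusted p = 0.803). An exact two-sided permutation test of 3 columns against 3 gave its lowest possible p, 0.1. This test, here and below, ignores the litter pairs.

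Without the litter 3 library labelled mutant the Shox2 change was -3.56 and passed (limma adjusted p = 0.0120). In a fit with a litter block, limma's adjusted p was 0.0998. Leaving the litter 2 pair out of that fit gave a change of -2.37 and an adjusted p of 5.04e-11 in limma. Leaving out litter 3 in its place gave -3.58 and 8.72e-06. Fits of 2 litters have few residual degrees of freedom, so these small p-values lean on limma's prior. The prior degrees of freedom were 52.4 without litter 2 and 9.43 without litter 3, against 4.84 with all litters. Over all rows, limma called 0 of 12314 (0.00%), with or without the block, and 439 rows had an unadjusted p under 0.05 (3.57%), 1433 with the block (11.6%). Array weights in limma gave 15 calls (0.122%), and leaving out mutant replicate 3 or control replicate 3 gave 1 each (0.00812%), Shox2 in the former case. The blocked fits called 534 rows (4.34%) when litter 2 was left out, 36 (0.292%) when litter 3 was, and 0 when litter 1 was.

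**Figure D1:**
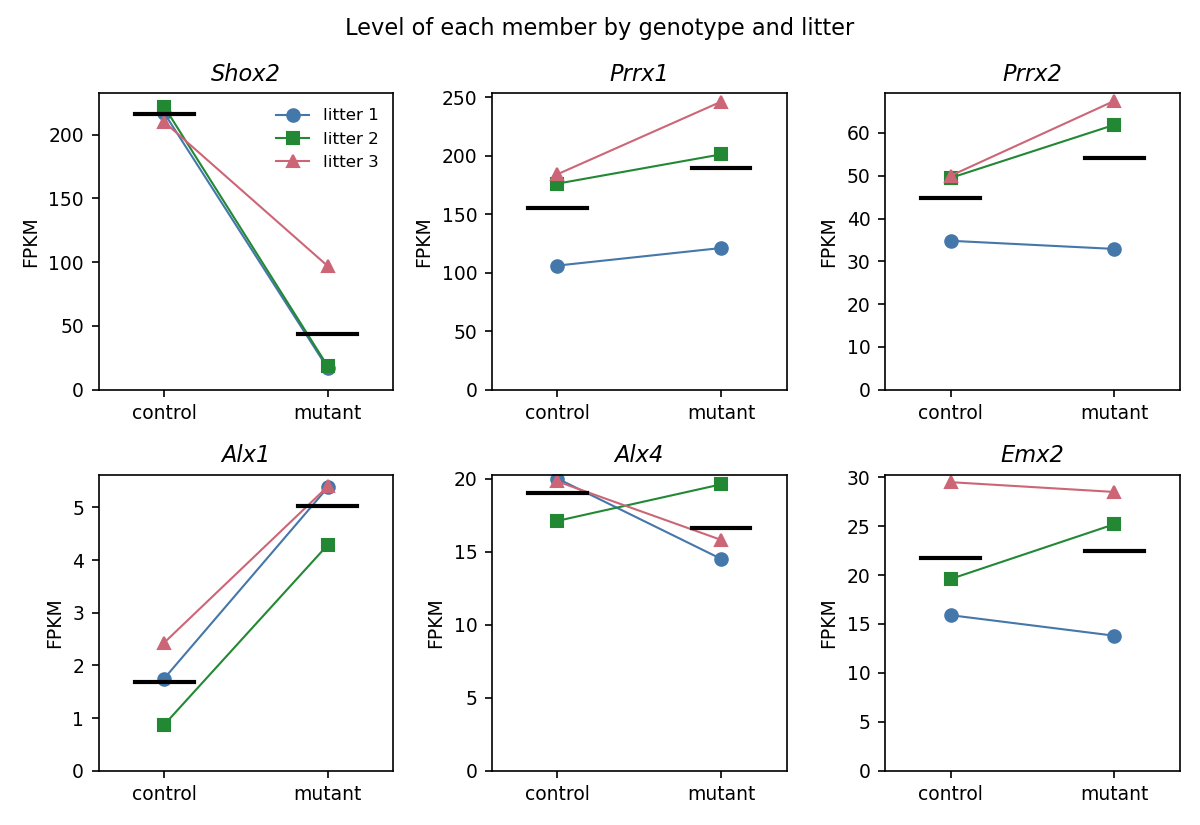
FPKM (vertical axes, each from 0) of the 6 members in control and mutant columns, with a line joining the 2 columns of a litter and a black bar at the group mean. Shox2 is lower and Alx1 higher in each mutant without overlap, whereas Prrx1, Prrx2 and Emx2 are ordered more by litter than by genotype.

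Alx1, an aristaless-like factor of craniofacial and limb girdle mesenchyme, was higher in the mutants of all 3 litters. It was at 1.75, 0.871 and 2.43 FPKM in the controls and at 5.38, 4.29 and 5.4 FPKM in the mutants. The groups did not overlap, and every mutant stood above the highest control. The mutant level was 3.06-fold that of the control in litter 1, 4.93-fold in litter 2 and 2.23-fold in litter 3. The fold was smallest in litter 3, where the control was highest, and largest in litter 2, where the control was lowest. The highest Alx1 column was 2.79 times the lowest among controls and 1.26 times among mutants. The litter 2 control, at 0.871 FPKM, was the only Alx1 column under 1 FPKM, so its fold is the least certain. A relation of Alx1 to the remaining Shox2 was not tested. Group means were 1.68 ± 0.780 and 5.02 ± 0.632 FPKM (SD, n = 3). Among all rows tested, 46 had a higher log2 change than Alx1.

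The Alx1 change was 1.20 on the log2(FPKM + 1) scale (SE 0.25, 95% interval 0.61 to 1.79), which did not pass over all rows (limma adjusted p = 0.670, exact two-sided permutation p = 0.1). With litter as a block the interval was 0.83 to 1.58 and limma's adjusted p 0.0663. Without the litter 2 pair the blocked change was 1.06 and passed (limma adjusted p = 2.83e-07). Without the litter 3 pair it was 1.36 and did not (limma adjusted p = 0.0538). As for Shox2, the p-values of these fits of 2 litters lean on limma's prior. Of the control columns, 2 of 3 reached 1 FPKM, so Alx1 passed the filter with the help of the mutant columns. Because Alx1 is low, its size depended on the pseudocount, and it was 1.62 with 0.1 in place of 1. Of the 6 members, Alx1 alone was higher in the mutants without overlap and Shox2 alone lower, against 4.22% and 5.03% of all rows tested. Alx1 passed the filter with that help and Shox2 is the disrupted gene, so no count is read from them. Alx1 is not among the symbols deposited as directly repressed.

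Alx4, the relative of Alx1 with a role in anteroposterior patterning, was at 20.0, 17.1 and 19.8 FPKM in the controls and 14.5, 19.6 and 15.8 FPKM in the mutants. It was lower in the mutants of litters 1 and 3 and higher in that of litter 2, and the groups overlapped. The change was -0.19 (SE 0.16, 95% interval -0.57 to 0.19, limma adjusted p = 1.00). It was -0.31 without mutant replicate 2 and -0.10 without mutant replicate 1. In the blocked fit it was -0.38 without the litter 2 pair (limma adjusted p = 0.0965), -0.06 without litter 1 and -0.13 without litter 3.

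The ratio of Alx1 to Alx4 is taken within a column, so it does not depend on how columns were scaled. It was 0.0878, 0.0510 and 0.122 in the controls and 0.371, 0.219 and 0.343 in the mutants. No control ratio reached the lowest mutant ratio. The ratio uses the low Alx1 values above, which already did not overlap between the groups, so it is no separate support. Within litters 1, 2 and 3 the ratio was 4.22-fold, 4.30-fold and 2.80-fold higher in the mutant. The two-sided exact permutation p was 0.1, again the lowest possible, and 0.400 when adjusted over the 4 ratios tested.

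**Figure D2:**
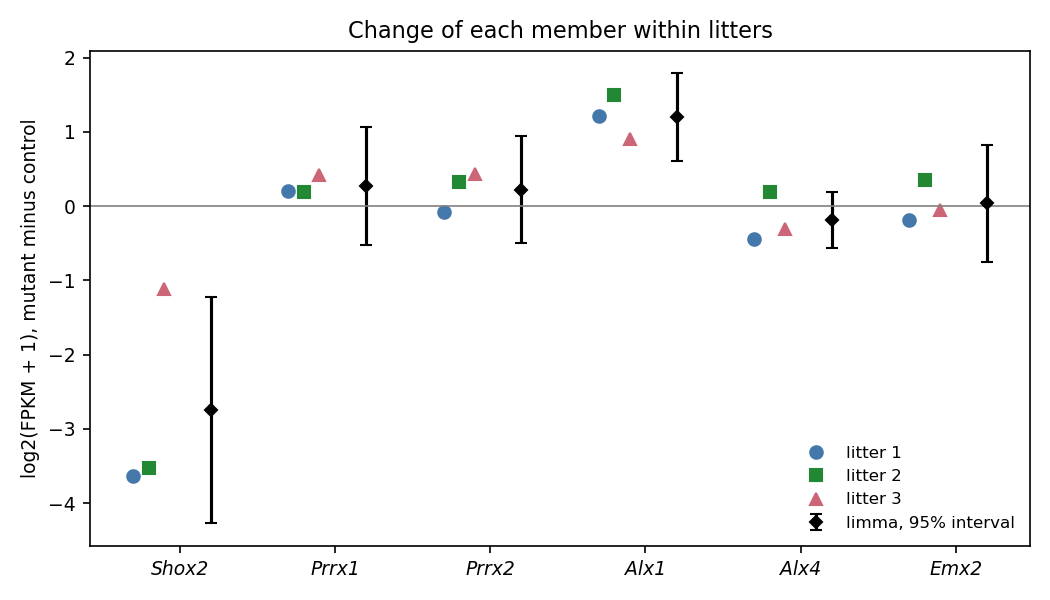
Difference in log2(FPKM + 1) between mutant and control within each litter (coloured symbols) and the limma estimate with its 95% interval (black) for the 6 members. The intervals of Shox2 and Alx1 lie away from 0, and those of Prrx1, Prrx2, Alx4 and Emx2 include it.

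Prrx1, a mesenchymal factor used to mark early limb bud cells, was the most abundant member after Shox2 in the controls, at 106, 176 and 184 FPKM. In the mutants it was at 121, 201 and 246 FPKM. Each mutant was above the control of its litter, at 1.15-fold, 1.14-fold and 1.34-fold, but litter 1 was lower than the other litters in both genotypes, and the groups overlapped. The change was 0.27 (SE 0.33, limma adjusted p = 1.00), with a 95% interval from -0.53 to 1.07. Leaving out 1 column moved it from 0.01 without control replicate 1 to 0.56 without mutant replicate 1, and it was 0.05 without mutant replicate 3. In the blocked fit it was 0.31 without the litter 2 pair and 0.19 without litter 3. Of all rows tested, 15.7% were higher in the mutants of 3 of 3 litters. Among members this held for Prrx1 and Alx1, and Shox2 was the member lower in 3 of 3, as were 22.3% of rows. No count is read from Alx1 or Shox2 here either.

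Prrx2, the close relative of Prrx1, was at 34.8, 49.5 and 50.0 FPKM in the controls and 32.9, 61.9 and 67.5 FPKM in the mutants. Litter 1 was again the lowest in both genotypes, and the mutant was above its control in litters 2 and 3 only. The change was 0.22 (SE 0.30, 95% interval -0.50 to 0.95, limma adjusted p = 1.00). Leaving out 1 column moved it from 0.03 without mutant replicate 3 to 0.54 without mutant replicate 1, where limma's unadjusted p was 0.0399 and its adjusted p 0.995. It was also small without control replicate 1 (0.05) or mutant replicate 2 (0.09). In the blocked fit it was 0.37 without litter 1, 0.17 without litter 2 and 0.12 without litter 3. The ratio of Prrx2 to Prrx1 was 0.329, 0.281 and 0.272 in the controls and 0.272, 0.307 and 0.275 in the mutants, so the pair kept similar proportions in all columns while their levels differed up to 2.03-fold and 2.05-fold between mutant litters. The exact two-sided permutation p for this ratio was 0.600, also after adjustment over the 4 ratios.

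Emx2 was at 15.9, 19.6 and 29.5 FPKM in the controls and 13.8, 25.2 and 28.5 FPKM in the mutants. It was lowest in litter 1 and highest in litter 3 in both genotypes, and the groups overlapped across nearly their whole range. The change was 0.04 (SE 0.33, 95% interval -0.75 to 0.82, limma adjusted p = 1.00). The interval in the blocked fit was -0.28 to 0.35. A 2-fold difference, 1 on this scale, thus lay outside both intervals. The direction of the estimate was not fixed, since it was below 0 without control replicate 1 or mutant replicate 3. In the blocked fit it was -0.12 without the litter 2 pair and 0.08 without litter 3. Emx2os, the antisense RNA of the locus, was at 2.60, 3.41 and 2.05 FPKM in the controls and 2.06, 3.22 and 3.69 FPKM in the mutants. The strandedness of the libraries is not given, so reads of Emx2 and Emx2os cannot be told apart where they overlap. The ratio of Emx2 to Prrx1 ran from 0.111 to 0.161 in the controls and from 0.114 to 0.125 in the mutants (exact two-sided permutation p = 0.400, adjusted 0.600). The ratio of Emx2 to Alx4 was higher in the mutant of each litter, by 1.20-fold, 1.12-fold and 1.22-fold, with overlapping groups (exact two-sided permutation p = 0.500, adjusted 0.600).

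In the controls, levels per length ran from Shox2 through Prrx1, Prrx2, Emx2 and Alx4 to Alx1. Neighbours in that order did not overlap over the 3 columns, except Emx2 and Alx4. Shox2 varied least between control litters, with its highest value 1.06 times its lowest, against 1.17 for Alx4, 1.44 for Prrx2, 1.74 for Prrx1, 1.86 for Emx2 and 2.79 for Alx1. In the mutants the order was Prrx1, Prrx2, Shox2, Emx2, Alx4 and Alx1. There Shox2 varied most, its highest column being 5.82 times its lowest, and its range overlapped those of Prrx2, Emx2 and Alx4. Its mean rests on the litter 3 library, since it stood above Emx2 and Alx4 in litter 1 and below both in litter 2.

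**Figure D3:**
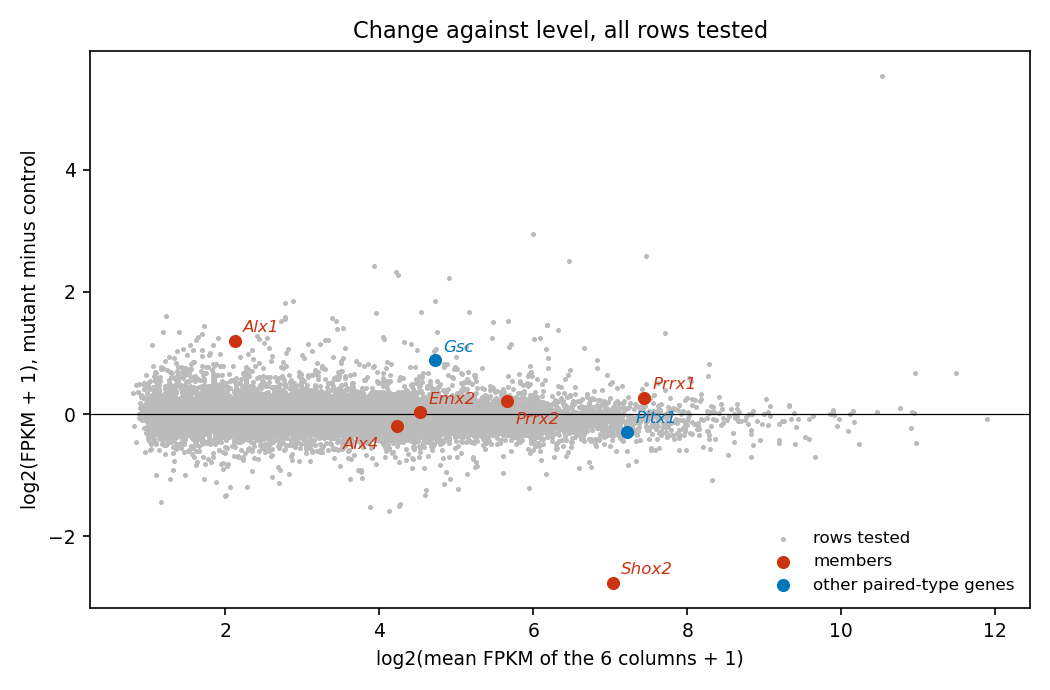
Log2 change of the mutants against the controls (vertical) over the log2 mean level (horizontal) for the 12314 rows tested, with the 6 members in red and 2 other paired-type genes, Gsc and Pitx1, in blue. Shox2 is the lowest point, Alx1 and Gsc lie towards the upper edge, and the other labelled genes lie within the main cloud.

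Other genes of the paired class were taken from a list of 29. Of these, 20 stayed under 1 FPKM in every column, among them 4 at 0 throughout, and 5 passed the filter. The others, among them Pitx3, reached 1 FPKM in too few columns to pass. None of the 5 passed over all rows, as for the table as a whole. Their median change was 0.04, against -0.04 over all rows tested. At an unadjusted p under 0.05, 2 were higher and 0 lower, against 2.21% and 1.36% of all rows. The counts were the same with the litter block, against 5.34% and 6.29%.

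Gsc was 1 of those 2. It encodes goosecoid, a repressor of the paired class that is also needed in the head, shoulder and hip skeleton. It was at 15.6, 16.4 and 20.1 FPKM in the controls and 24.8, 37.9 and 36.9 FPKM in the mutants. All mutants lay above all controls. The change was 0.88 (SE 0.21, limma adjusted p = 0.816, and 0.0784 in the blocked fit).

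Pitx3, which missed the filter, was at 0.321, 0 and 0.900 FPKM in the controls and 1.18, 1.48 and 0.993 FPKM in the mutants. Pitx1, the determinant of hindlimb identity, was at 119, 230 and 141 FPKM in the controls and 97.4, 168 and 130 FPKM in the mutants. It was lower in the mutant of each litter, while the groups overlapped (change -0.29, SE 0.31, limma adjusted p = 1.00). Tbx4, another hindlimb gene, was at 34.0, 46.8 and 34.7 FPKM in the controls and 34.9, 49.1 and 34.3 FPKM in the mutants. The forelimb gene Tbx5 was at 55.1, 52.8 and 54.8 FPKM and at 46.0, 60.6 and 64.2 FPKM, so genes of both limb types were detected in every column.

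**Figure D4:**
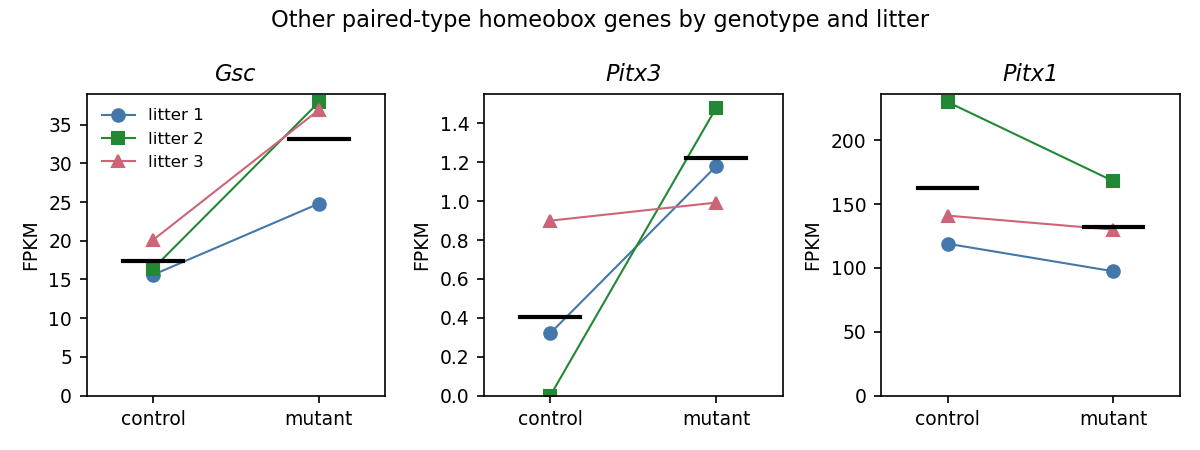
FPKM (vertical axes, each from 0) of 3 other paired-type homeobox genes by genotype, with a line per litter and a black bar at the group mean. Gsc is higher in each mutant column than in any control column. So is Pitx3, which missed the filter, lies near 1 FPKM or below, and in litter 3 is at 0.993 against 0.900 FPKM. Pitx1 is lower in the mutant of each litter.

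Partners of Emx2 and the Alx genes in the shoulder girdle were taken from a list of 13, of which 12 passed the filter. Their median change was 0.03, against -0.04 over all rows, and 0 passed over all rows. At an unadjusted p under 0.05, 0 were higher or lower, against 2.21% and 1.36% of all rows. With the litter block 2 were higher, Pax1 and Gli3, and 0 lower, against 5.34% and 6.29%. The smallest p-values belonged to Gli3, Pax1 and Tbx15. Gli3 encodes a transcription factor of the hedgehog pathway. It was at 23.9, 19.4 and 25.3 FPKM in the controls and 26.8, 29.6 and 31.2 FPKM in the mutants. The groups did not overlap (change 0.35, SE 0.15, limma adjusted p = 1.00). Pax1, a paired-box gene needed for the acromion of the shoulder blade, was at 0.603, 4.42 and 3.24 FPKM in the controls and 1.21, 7.06 and 6.21 FPKM in the mutants. It was higher in the mutant of every litter, but litter 1 was far below the others. Tbx15, needed for normal shoulder blade shape, was at 85.7, 93.7 and 95 FPKM in the controls and 70.2, 92.7 and 90.5 FPKM in the mutants.

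The anteroposterior list, genes of the Shh pathway on which Alx4 and Gli3 act, had 16 genes, of which 14 passed the filter. Their median change was 0.03, and 0 passed over all rows. At an unadjusted p under 0.05, 2 were higher and 2 lower, against 2.21% and 1.36% of all rows. With the litter block 5 were higher and 4 lower, against 5.34% and 6.29%. Ptch1, the hedgehog receptor and target, was at 23.3, 21.4 and 24.8 FPKM in the controls and 13.0, 15.2 and 17.9 FPKM in the mutants, without overlap (change -0.57, SE 0.16, limma adjusted p = 0.962). Hoxd11, a posterior Hox gene of the middle limb segment, was at 20.1, 16.7 and 18.7 FPKM in the controls and 23.6, 24.3 and 28.2 FPKM in the mutants, without overlap (change 0.44, SE 0.14, limma adjusted p = 1.00). Shh itself was at or under 0.266 FPKM in every column.

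Chac2, Tgif1, Thbd, Tysnd1 and Spry4 had the levels most like those of Shox2, by Pearson's r of log2(FPKM + 1) over the 6 columns among rows averaging at least 2 FPKM. Their r ran from 0.987 to 0.999. The 6 points come in litter pairs and the measure ignores the size of a difference, so r is a description only. Spry4, an inhibitor induced by FGF signalling, was at 15.1, 15.2 and 13.6 FPKM in the controls and 7.84, 7.81 and 11.1 FPKM in the mutants. Thbd, which encodes thrombomodulin, was at 4.98, 4.90 and 5.35 FPKM and at 2.45, 2.68 and 4.27 FPKM. In both genes, as in Shox2, the litter 3 library labelled mutant lay between the other mutants and the controls. Both were chosen for likeness to Shox2 over these same columns, so this shared order follows from the choice and supports nothing. Tgif1, a homeobox corepressor, was at 39.9, 40.3 and 39.9 FPKM and at 29.5, 29.9 and 37.9 FPKM. Tysnd1, a peroxisomal protease, had means of 26.1 and 19.9 FPKM, and Chac2, an enzyme of glutathione breakdown, of 3.45 and 3.08 FPKM.

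For the other members, the rows most like Prrx1 were Disp1 and Rell1 (r of 0.996 and 0.994 over the 6 columns), and those most like Prrx2 were Wwc2 and Rp9 (both 0.996). Casp9 and Prpf8 were most like Emx2 (0.998 and 0.997), and Polg and Gsn most like Alx4 (0.989 and 0.966). Alx1 was most like Man1a and Cth (0.989 and 0.988). Man1a, a mannosidase of protein glycosylation, was at 8.62, 7.75 and 9.0 FPKM in the controls and 12.1, 11.3 and 11.9 FPKM in the mutants.

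The genes that lie beside the members were looked up by RefSeq gene order after the members' values were seen, 2 protein-coding genes on each side. Of these 24 neighbours, 19 were tested. Rassf9 and Nts lie together on 1 side of Alx1. Each reached 1 FPKM in 1 control column and passed the filter through the mutant columns, where it is high, so no count is read from them. Rassf9, an endosomal protein of the RASSF family, was at 1.11, 0.509 and 0.892 FPKM in the controls and 3.10, 1.67 and 2.16 FPKM in the mutants. Every mutant was above every control (change 0.84, SE 0.22, limma adjusted p = 0.902, and 0.110 in the blocked fit). Nts, which encodes the peptide neurotensin, lies next to Rassf9 and was at 1.16, 0 and 0.545 FPKM in the controls and 1.38, 1.20 and 2.27 FPKM in the mutants (change 0.79, SE 0.31, limma adjusted p = 1.00). On the other side of Alx1, Lrriq1 did not exceed 0.0696 FPKM. The gene between them, Gm34298, had no usable row and so no values.

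**Figure D5:**
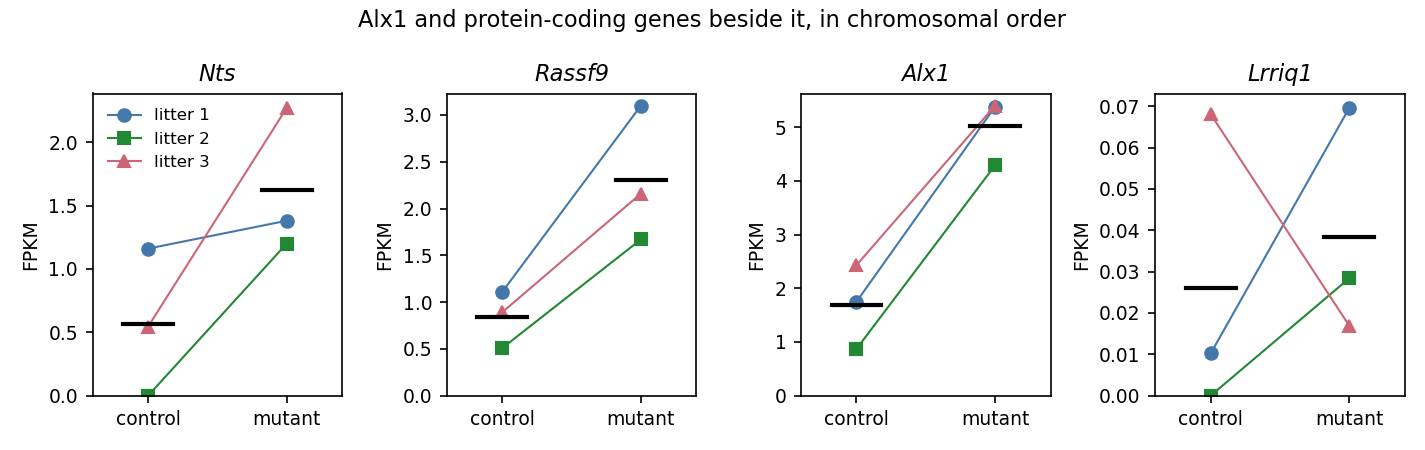
FPKM (vertical axes, each from 0 and on its own scale) of Alx1 and 3 protein-coding genes beside it, by genotype, with a line per litter and a black bar at the group mean. Nts, Rassf9 and Alx1 are higher in each mutant than in any control, and Lrriq1 is near 0 throughout.

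Of the neighbours of Shox2, none was without overlap. Rsrc1, a splicing-related gene that lies beside it, was at 31.1, 25.3 and 16.7 FPKM in the controls and 40.9, 19.8 and 35.2 FPKM in the mutants. Ptx3, the pentraxin gene on the other side, was at 20.2, 39.5 and 34.8 FPKM and at 15.3, 23.2 and 35.2 FPKM. Gorab beside Prrx1, a Golgi protein gene, was at 12.3, 11.5 and 14.4 FPKM in the controls and 15.0, 15.5 and 14.7 FPKM in the mutants. It was higher without overlap, as were 4.22% of all rows tested. Of the 19 neighbours tested, 1 was lower without overlap, against 5.03% of all rows tested. This was Asb6 beside Prrx2, at 11.2, 14.7 and 11.7 FPKM and at 7.63, 9.60 and 9.37 FPKM.

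The symbols deposited as directly repressed ran in blocks along the chromosome. All 8 neighbours of Shox2 and Prrx1 are in the list, and none of the 16 neighbours of Prrx2, Alx1, Alx4 and Emx2 is. Shox2 stands in an unbroken run of 10 listed protein-coding genes from Kcnab1 to Mlf1, and Prrx1 in a run of 5. In the Prrx1 run, 3 of the 4 others stayed under 1 FPKM in all columns, with Mroh9 at 0 throughout. In the Shox2 run all 9 others were tested, 4 were higher in the mutants of 3 of 3 litters, against 15.7% of all rows. Without overlap 1 was higher, against 4.22%. This was Kcnab1, at 2.25, 2.91 and 2.96 FPKM in the controls and 4.19, 4.74 and 5.31 FPKM in the mutants. Shox2 itself, named in that list, is the gene disrupted in the mutants. The sources used here do not say how the list was compiled.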

How the data were processed

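Expression was measured by RNA sequencing in sorted cells, with 3 control and 3 mutant columns from 3 litters. Per the submitters' processing notes, TopHat and Cuffdiff were used with the mm9 build. Per the file headers, the authors normalised each litter's columns by Cuffdiff's geometric method, and the deposited values were taken as FPKM although the headers do not name the unit. The second deposited file is a plain list of symbols, with no measurement. Annotation, filters and versions are not stated in what was used here. Replicates are numbered by litter.

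The 12314 rows with at least 1 FPKM in 3 or more columns were put on the log2(FPKM + 1) scale, which understates the fold changes of low genes. limma (version 3.58.1, under R 4.3.3) then fitted mutant against control with a mean-variance trend. Benjamini-Hochberg adjustment over all these rows was used with a threshold of 0.05. Litter numbers pair the columns, per the labels. Deviations from group means correlated across genes at 0.87, 0.57 and 0.77 between the 2 columns of litters 1, 2 and 3. The blocked fit, other pseudocounts, filters and scalings, array weights and left-out columns were alternatives.

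The members and lists were chosen with earlier results of these data known. Of 128 listed symbols, 124 matched a row, 1 by a RefSeq synonym. Named genes were the members, up to 3 genes per list of limb genes by smallest p, and those most like each member, 5 for Shox2 and 2 for each other. Pitx1, Pitx3, Tbx4, Tbx5, Shh, Emx2os, sex-linked genes and the neighbours were named after their values were seen. Promoters came from RefSeq on GRCm38.p6, which also gave the gene order. Whole limbs were not analysed here, and a few genes that meet the rule are not reported here.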

Additional observations from a re-analysis of the deposited data

How the results depend on the processing

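All 6 members kept the direction of their change under every alternative that could be run, except Emx2, and their side of the threshold, except Shox2 and Alx1. With a mean of 5 FPKM or more, Alx1 drops out and has no value. The count of calls was 0 as reported and 15 with array weights. Leaving out 1 column gave 0 to 1 calls. The log2 change of Shox2 then ran from -3.56 without mutant replicate 3, where it passed, to -2.32 without mutant replicate 1, and that of Emx2 from -0.16 to 0.34. Emx2 was also reversed with array weights (-0.08). With the replicate block, which pairs columns by litter, the count of calls was again 0, and the changes of Shox2 and Alx1 were -2.75 and 1.20, both short of the threshold as without it. The block changed no member's call over 3 litters. With the block and without the litter 2 pair there were 534 calls, with Shox2 at -2.37 and Alx1 at 1.06, both past the threshold, and Emx2 at -0.12. With the block and without the litter 3 pair there were 36 calls, with Shox2 at -3.58 past the threshold, and without the litter 1 pair there were 0. These fits of 2 litters have few residual degrees of freedom, and limma's prior degrees of freedom were 52.4, 9.43 and 3.9 without litters 2, 3 and 1, against 4.84 with all 3. The cause of these shifts was not tested. The block with a pseudocount of 0.1, chosen after the data were seen, gave 0 calls and changes of -2.80 for Shox2 and 1.62 for Alx1. Depth is unknown, which limits what can be said of Alx1, Rassf9 and Nts at a few FPKM.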

Other observations

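Adjacent genes were listed together throughout the symbols deposited as directly repressed, and not just around Shox2 and Prrx1. Of 1223 listed genes that are protein-coding in RefSeq, 87.3% have another listed gene directly beside them in chromosomal order, against 5.17% of unlisted genes, where 5.58% of 21900 protein-coding genes are listed. This was looked for after the data were seen, rests on gene order in GRCm38.p6 and was not tested.

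Fgf8, a growth factor of the ectodermal ridge at the limb tip, was at 6.12, 9.92 and 10.2 FPKM in the controls and 2.52, 6.11 and 5.95 FPKM in the mutants, lower in each litter and without overlap. Fgf10, its mesenchymal counterpart, was at 3.30, 5.72 and 7.74 FPKM in the controls and 4.70, 11.7 and 11.3 FPKM in the mutants, higher in each litter but with overlap. Neither passed over all rows (limma adjusted p = 1.00 for both). In the blocked fit limma's adjusted p was 0.0998 for Fgf8 and 0.203 for Fgf10. Grem1 encodes a secreted BMP antagonist that links the posterior limb bud to the ridge. It was at 10, 8.49 and 12.7 FPKM in the controls and 12.8, 15.6 and 19.2 FPKM in the mutants. Its groups did not overlap (limma adjusted p = 1.00, and 0.196 in the blocked fit). Summed surface ectoderm markers were at 9.19, 28.3 and 9.38 FPKM in the controls and 10.3, 13.4 and 9.46 FPKM in the mutants. Of these markers Epcam alone was lower in each mutant. It was at 4.45, 5.41 and 5.15 FPKM in the controls and 3.42, 4.59 and 5.0 FPKM in the mutants. Every other marker of surface ectoderm was higher in the mutant of litter 1, litter 3 or both. The part of surface ectoderm cells in the Fgf8 values was not tested. These 3 genes were chosen after their values were seen.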
